A study of Saccharomyces cerevisiae with 4 samples.

Results

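The regions described here are the introns of nuclear protein-coding genes of Saccharomyces cerevisiae, taken as the gaps of at least 50 bp between exon or coding parts of a transcript in the S288c annotation (build R64). There are 280 such introns in 270 of the 6002 nuclear protein-coding genes, of which 90 lie in 88 ribosomal protein genes (symbols RPL and RPS, for the large and small ribosomal subunit) and 190 in 182 other genes. The ribosomal protein introns are the longer ones, with lengths of 147 to 561 bp and a median of 408.5 bp, against 52 to 1002 bp and a median of 97 bp for the others. They also begin close to the gene start, which the annotation places at the start codon. The median distance from there to the 5′ splice site is 15.5 bp in ribosomal protein introns and 47 bp in the others.

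Introns are removed from the nascent transcript by the spliceosome, which in budding yeast reads a nearly fixed 5′ splice site and branch point. Few yeast genes carry an intron, but those that do include most ribosomal protein genes, which are transcribed at very high rates in growing cells. Set2 travels with elongating RNA polymerase II and methylates histone H3 at K36, and cells without it initiate transcription at cryptic sites within gene bodies. A capped RNA that starts inside an intron lacks the start of the gene and holds no complete intron for the spliceosome.

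Capped RNA 5′ ends from 4 libraries were counted. Of these, 2 came from BY4741, a haploid laboratory strain of mating type a with the alleles his3Δ1, leu2Δ0, ura3Δ0 and met15Δ0, and 2 from set2Δ, the same background with SET2 replaced by kanMX4. All cultures were untreated and kept at 30 °C in YPD until their optical density was near 1. The labels give 1% glucose, whereas the paper's paragraph on cultures, which is about crosslinked cells, gives a higher level. The duplicates are labelled biological, so that n = 2 per strain throughout. The p-values of the count models rest on counting error and on a spread between duplicates that is estimated in part over all regions together. The totals were 375442 and 452888 counts in BY4741 against 1099482 and 1267578 in set2Δ, a difference in depth of 2.86 times. SET2 itself held 9 and 2 sense counts in BY4741 and 0 and 1 in the deeper set2Δ libraries. LEU2 and MET17 (MET15) held no count and URA3 at most 1 in any library, whereas HIS3, of which his3Δ1 removes a part, held counts in all 4. The mating-type a transcripts of MFA1, MFA2, STE2 and BAR1 were found in every library, and STE3, which marks the opposite type, held at most 3 counts.

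The exon-intron boundaries below show where the 5′ ends discussed in the following paragraphs lie. Each line gives the last 12 bases of the exon and the first 18 of the intron on the coding strand in build R64, with the first 6 bases of the intron, the annotated 5′ splice site, in capitals. RPS27A, RPL37B, RPL20B and RPS17B held the most counts of all introns, RPL39 and RPS23B are among those with the largest change, and GLC7 and HAC1 are well-counted introns outside the ribosomal protein genes that changed in opposite directions.
RPS27A (chrXI:158604-158633, plus strand): tatcccaaaatgGTATGTtagtatccaata
RPL37B (chrIV:1450829-1450858, minus strand): taaagatgggtaGTATGTacaggaattatt
RPL20B (chrXV:901176-901205, minus strand): agcaaagaaaaaGTATGTaatagaatgtat
RPS17B (chrIV:1355533-1355562, minus strand): cagataaaaatgGTACGTaccacgagatgt
RPL39 (chrX:75927-75956, plus strand): atcaacatggctGTATGTtagaaagatatt
RPS23B (chrXVI:795018-795047, plus strand): cagaagaaacaaGTATGTacaattatagaa
GLC7 (chrV:432660-432689, plus strand): gccccaattaaaGTATGTtaatgttgaact
HAC1 (chrVI:75828-75857, plus strand): ggcgtaatccagCCGTGAttacgatgacca

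The hexamer GTATGT was the first 6 bases of 204 of the 280 introns (72.9%), 67 of them in ribosomal protein genes, and of none of 212 stretches of the same length at the start of the downstream exon. The branch point heptamer TACTAAC was found on the coding strand of 232 introns (82.9%) and of none of those 212 stretches. On the opposite strand it was found in 1.79% of introns and in 0.472% of the stretches. RPS17B has GTACGT, which is the next most frequent hexamer among ribosomal protein introns with 14 members. HAC1 begins with neither, and its intron is known to be cut out by the endonuclease Ire1 and not by the spliceosome.

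5′ ends inside ribosomal protein introns were more frequent in set2Δ than in BY4741, while those in the exon that follows were not. Their density is given as sense counts per kb of uniquely mappable sequence and per 1000000 counts of the library. It was 41.3 and 37.3 over the 90 ribosomal protein introns in the BY4741 libraries against 126 and 127 in the set2Δ libraries, which is 3.22 times as high. In the first 300 bp of the downstream exon it was 203 and 183 in BY4741 against 157 and 133 in set2Δ, which is 0.751 times as high. In neither region did the libraries of the strains overlap.

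The intron density was therefore 0.204 times that of the downstream exon in both BY4741 libraries and 0.806 and 0.953 times in set2Δ. On the log2 scale the mean of this ratio was -2.29 ± 0.000431 (SD, n = 2) in BY4741 and -0.19 ± 0.171 in set2Δ, a difference of 2.10. For the 190 other introns the difference was smaller, with ratios of 1.26 and 1.28 in BY4741 against 1.47 and 1.48 in set2Δ. The exact two-sided permutation test gave p = 0.33 for both groups, which is the smallest value that 2 against 2 libraries allow. The difference of the other introns, 0.21 on the log2 scale, turned to -0.0234 when distinct positions were counted and to -0.0716 against the whole downstream exon, whereas that of the ribosomal protein introns kept its sign under all alternatives.

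**Figure D1:**
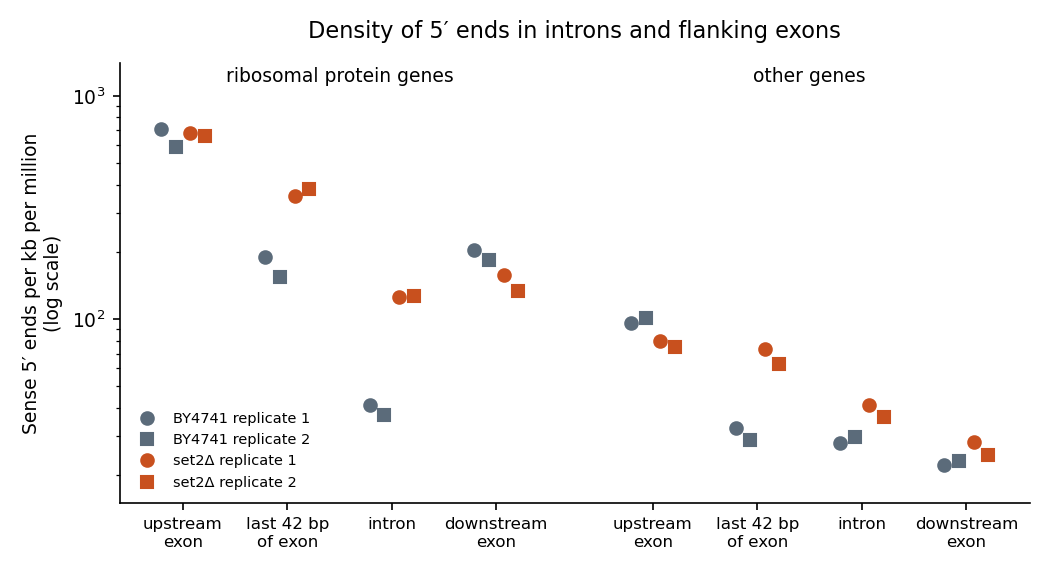
Sense 5′ ends per kb of uniquely mappable sequence and per 1000000 counts (log scale) in the upstream exon without its last 42 bp, in those last 42 bp, in the intron and in the first 300 bp of the downstream exon, for ribosomal protein genes (left) and other genes (right), with 1 point per library (grey BY4741, orange set2Δ, circle replicate 1, square replicate 2). In ribosomal protein genes the intron points of set2Δ (126 and 127) lie above those of BY4741 (41.3 and 37.3), and the points of the downstream exon lie below.

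The other introns as a group differed less between the strains. Their density was 27.9 and 29.7 in BY4741 against 41.1 and 36.5 in set2Δ, which is 1.35 times as high, beside 1.16 times in their downstream exons. Densities are scaled by library totals, which differ 2.86 times between the strains. The library sizes after TMM scaling, used in the tests below, differ 4.64 times, and on these the density ratios would be lower. The direction of the difference in other introns and their downstream exons therefore depends on the scaling. Ribosomal protein introns were 1.48 and 1.26 times as dense as the others in the BY4741 libraries against 3.07 and 3.47 times in the set2Δ libraries. On the log2 scale this ratio differed by 1.26 between the strains (exact permutation test, two-sided p = 0.33). Introns as a whole held 15.7% and 16.4% of the sense counts of introns and exons of their genes in BY4741 against 32.2% and 34.1% in set2Δ.

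Counts placed just before the 5′ splice site were more frequent in set2Δ in both groups of genes. A read that begins in the last 42 bp of the exon and comes from spliced RNA would cross the junction, so that counts there come mainly from unspliced RNA if reads were aligned without gaps across introns, which is not given in the sources used here. Their density was 190 and 154 in BY4741 against 354 and 382 in set2Δ for ribosomal protein genes, and 32.6 and 28.7 against 73.0 and 63.1 for the others. These are ratios of 2.14 and 2.22, and the strains did not overlap in either. The upstream part of the same ribosomal protein exons, which is short, had 709 and 592 in BY4741 against 685 and 659 in set2Δ, where the strains overlapped. In the other genes it had 96.1 and 101 in BY4741 against 79.8 and 74.6 in set2Δ, a ratio of 0.783 without overlap.

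Each intron was next tested together with the internal exonic window of every gene (from 200 bp after the gene start) in edgeR's quasi-likelihood model with TMM scaling, so that fold changes are relative to all these regions. Of the 280 introns, 61 held no sense count, 78 held 1 to 9 and 141 held at least 10 and were tested. All 61 without counts belong to other genes. Among the 86 tested ribosomal protein introns 49 were higher in set2Δ and 0 lower at an adjusted p below 0.1. Of the 49, 5 held no BY4741 count, passed the filter of 10 counts only through set2Δ and could not come out lower. Over all 4863 regions tested, 25.0% were called higher and 17.6% lower. The median log2 fold change was 1.08 in ribosomal protein introns (0.99 with introns lacking BY4741 counts at their bound) and 0.16 over all regions.

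The calls were spread over both subunits and over paralogs. In the large subunit 29 of 51 tested introns were higher and in the small subunit 20 of 35, with medians of 1.07 and 1.08. Of 38 pairs of paralogous genes with both introns tested, both were called higher in 15 pairs, 1 of the pair in 14 and neither in 9. A positive fold change was fitted in 80 of the 86 introns, among them those without BY4741 counts, which could not come out negative.

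**Figure D2:**
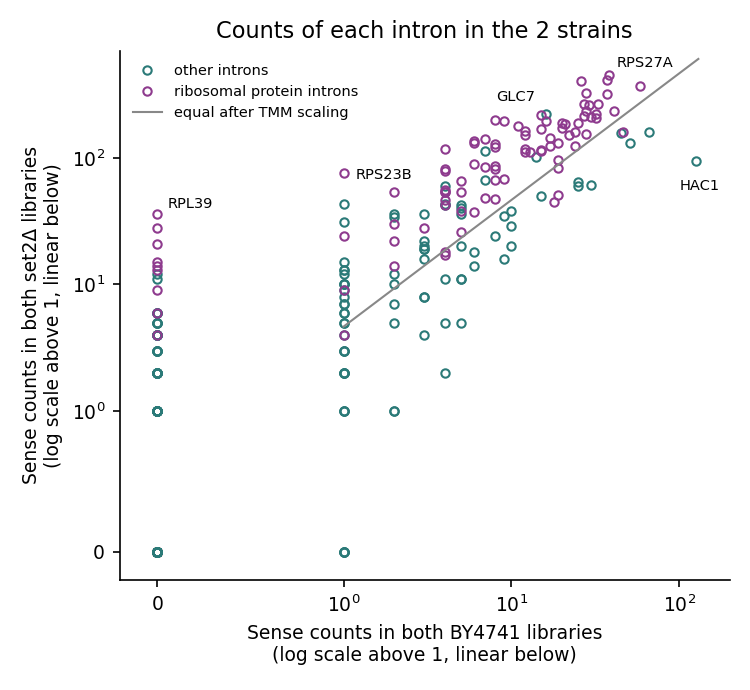
Sense counts of each of the 280 introns, summed over both BY4741 libraries (x axis) and both set2Δ libraries (y axis), on axes that are logarithmic above 1 and linear below, with the line of equal levels after TMM scaling. Most ribosomal protein introns lie above the line, RPL39 has counts only in set2Δ (36), and HAC1 lies furthest below the line among the well-counted introns.

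The 10 introns with the most sense counts were all of ribosomal protein genes and held 23.9% of the counts of all introns. RPS27A, for a protein of the small subunit, held 25 and 13 counts in BY4741 against 258 and 192 in set2Δ. After scaling to 1000000 counts in the tested regions (CPM) this was 499 and 354 CPM in BY4741 against 1131 and 1098 in set2Δ. All set2Δ values lay above all BY4741 values, and the log2 fold change was 1.35 ± 0.27 (SE, adjusted p = 5.99e-06, edgeR).

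RPL37B, for a protein of the large subunit, held 22 and 15 counts in BY4741 against 216 and 196 in set2Δ (log2 fold change 1.27 ± 0.27, edgeR adjusted p = 2.85e-05). RPL20B held 15 and 11 against 223 and 183 (1.75 ± 0.30, edgeR adjusted p = 6.32e-08). In both genes the scaled values of the strains were apart. RPS17B, in contrast, held 29 and 29 against 183 and 183 counts and its fold change of 0.45 ± 0.25 did not pass the test (edgeR adjusted p = 0.149). Its scaled values were 579 and 789 CPM in BY4741 against 802 and 1047 in set2Δ. Of the other 6 introns in this group, RPL42B, RPL26B, RPS30A, RPL42A and RPS6B were called higher, with log2 fold changes of 0.79 to 1.32, and RPL40A, whose product is a fusion with ubiquitin, was not (0.30, edgeR adjusted p = 0.422). None of the 8 calls among these 10 introns remained when distinct positions were counted, where RPS27A was at 0.30, RPL37B at 0.24 and RPL20B at 0.60 on the log2 scale.

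The largest changes among ribosomal protein introns were in members with next to no counts in BY4741. RPL39, whose small protein lines the exit tunnel of the ribosome, held 0 and 0 counts in BY4741 against 18 and 18 in set2Δ. This is at least 2.59-fold higher after scaling with a floor of 3 counts over the BY4741 libraries (edgeR adjusted p = 0.00257). The paralogs RPL17A (0 and 0 against 16 and 5) and RPL17B (0 and 0 against 11 and 17) were at least 1.51-fold and 2.01-fold higher. RPS7A (0 and 0 against 6 and 9) and RPS7B (0 and 0 against 8 and 6) were at least 1.08-fold and 1.00-fold higher, a bound that leaves room for no change in RPS7B. All 5 were called in edgeR, with adjusted p of 0.0992 or less. RPL39 was called under all 17 alternatives, RPL17A under 15 of 17 and RPL17B under 16 of 18. RPS7A was called under 11 of 16 and RPS7B under 5 of 16. Without BY4741 replicate 1 none of these calls but that of RPL39 remained, without BY4741 replicate 2 those of RPL17A, RPS7A and RPS7B were lost, and without set2Δ replicate 2 that of RPL17B.

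RPS23B, whose protein lies at the decoding centre, held 1 and 0 counts in BY4741 against 39 and 37 in set2Δ. The ratio after scaling was 16.4 with a 95% counting interval of 2.85 to 655, which shows how little the BY4741 libraries fix it. RPL33B held 2 and 0 against 28 and 26 (ratio 5.82, interval 1.53 to 49.2). RPL27A held 2 and 2 against 56 and 61, with scaled values of 39.9 and 54.4 CPM in BY4741 against 245 and 349 in set2Δ (log2 fold change 2.64 ± 0.56, edgeR adjusted p = 2.41e-05).

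In 6 tested ribosomal protein introns the fitted fold change was negative, and none of them passed the test. These included RPS14B, whose product represses its own splicing, with 8 and 11 counts in BY4741 against 26 and 25 in set2Δ (-0.79 ± 0.43, edgeR adjusted p = 0.142). RPL7A has 2 introns. Its first held 8 and 10 against 24 and 21 counts (-0.89 ± 0.45, edgeR adjusted p = 0.109), and its second, which encloses the snoRNA gene SNR39, held 0 and 0 against 3 and 1 and was not tested. RPL30, also known to regulate its own splicing, held 5 and 1 against 20 and 17 counts (0.41 ± 0.66, edgeR adjusted p = 0.675).

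Counts of calls depended on the scaling and on the libraries. The number of ribosomal protein introns called higher was 75 of 86 with library totals, where 41.6% of all regions were called higher and the median over all regions was 0.85. It was 19 of 86 with DESeq2, beside 13.0% of all regions, and 26 of 82 without set2Δ replicate 2, beside 19.0%. With distinct positions in place of counts it was 14 of 85, which is no more than the 20.4% of all regions called higher under that setting, and the medians were 0.47 in these introns and 0.09 over all regions.

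The change in each intron was then set against that in the first 300 bp of its downstream exon in 1 model with the library as a factor, fitted together with the inside and the 5′ window of all genes. The intron rose relative to the exon in 58 of the 85 ribosomal protein introns tested and fell in 0, beside 17.1% and 1.73% of the 4633 pairs of regions tested. All but 128 of these pairs set the inside of a gene against its 5′ window, which is another contrast. The median of this relative log2 change was 2.28, against 0.45 over all pairs. It was positive in 83 of the 85. RPL20B shows the pattern in counts: its intron went from 15 and 11 to 223 and 183 and its downstream exon from 31 and 20 to 49 and 36, a relative change of 3.22 ± 0.40 (SE, edgeR adjusted p = 4.14e-08).

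RPL30 changed little in the intron but its downstream exon went from 23 and 33 counts to 27 and 18 in the deeper set2Δ libraries, which gave a relative change of 2.92 ± 0.67 (edgeR adjusted p = 0.00125). RPL39, RPL17A, RPL17B, RPS7A and RPS7B had the largest fitted relative changes, and for these the fit has no counts in BY4741 introns to rest on. The number of calls was 27 with DESeq2, beside 3.71% of all pairs. It was 9 against the upstream exon, where 20 could be tested, beside 15.8% of all pairs. It was 0 without set2Δ replicate 1 and 0 without set2Δ replicate 2, where 0 of all pairs in the genome were called. Medians of the ribosomal protein introns without these libraries were 2.42 and 2.09.

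Only 2 of the 43 other introns tested were called in this comparison, with a median of 0.30, beside 17.1% of all pairs called higher and a median of 0.45. EFB1, for a subunit of translation elongation factor 1 and with the snoRNA gene SNR18 in its intron, held 3 and 1 counts in BY4741 against 28 and 15 in set2Δ, beside 32 and 25 against 64 and 55 in its exon (relative change 2.34 ± 0.71, edgeR adjusted p = 0.0176). MOB1, a component of the mitotic exit network, held 5 and 2 against 39 and 28 in the intron and 5 and 1 against 8 and 0 in the exon. The MOB1 call was lost under 9 of 12 alternatives and that of EFB1 under 6 of 17, among them DESeq2 for EFB1 and each of the 4 libraries left out.

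Within ribosomal protein introns the 5′ ends were concentrated near the 5′ splice site in both strains. The first 50 bp held 64.7% and 65.8% of the intron counts in BY4741 against 58.1% and 59.5% in set2Δ, and the next 50 bp held 17.7% and 16.3% against 21.2% and 21.0%. The density in the first 50 bp was 218 and 201 in BY4741 against 599 and 616 in set2Δ. Between 201 and 250 bp it was 9.50 and 7.23 against 48.9 and 39.1, so that the strains were apart at both distances. Between 401 and 450 bp, which fewer introns reach, BY4741 lay at 19.5 and 17.7 against 22.2 and 16.1 in set2Δ, and the strains overlapped. In introns that hold TACTAAC, 96.1% to 98.2% of the counts lay upstream of it in every library.

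**Figure D3:**
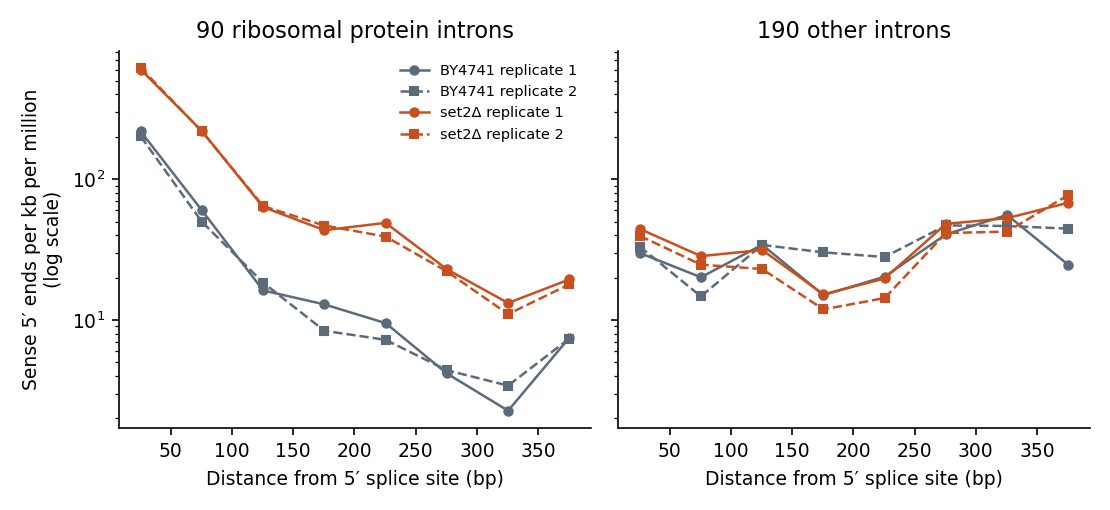
Sense 5′ ends per kb and per 1000000 counts (log scale) in 50-bp windows by distance from the 5′ splice site, for ribosomal protein introns (left) and other introns (right), with 1 line per library. In ribosomal protein introns the set2Δ lines run above the BY4741 lines in every window of the first 400 bp, which are those drawn, from 599 and 616 against 218 and 201 in the first, and in other introns the lines cross.

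The single most used base was the third of the intron, which is the first A of GTATGT. Over the 90 ribosomal protein introns it held 96 and 82 counts in BY4741 against 502 and 451 in set2Δ, spread over 40 and 32 introns and over 66 and 65 introns. The fifth base, the second G, held 30 and 14 against 186 and 167 counts, while the base between them held 7 and 1 against 37 and 30. Both bases follow a T in GTATGT, so that the 5′ end falls on a purine after a pyrimidine, the usual composition of a yeast start site. In RPS27A the third base was the most used one, with 3 and 2 counts in BY4741 against 16 and 15 in set2Δ.

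A purine after a pyrimidine was the first base of 84.3% and 85.2% of the ribosomal protein intron counts in BY4741 and of 81.4% and 82.3% in set2Δ, while 23.8% of the bases of these introns are of this kind. With each used position taken once, the share was 79.5% and 82.6% in BY4741 against 64.8% and 66.7% in set2Δ, a wider gap. The shares were not compared at equal depth. The most used base of RPL20B, in capitals with the base before it, was base 42 of the intron and held 1 and 3 counts in BY4741 against 18 and 16 in set2Δ. That of RPL39 was base 36, with 0 and 0 against 5 and 6.
RPL20B (chrXV:901138-901167, minus strand): tgtggaatgaatgtCAatgtagctatttta
RPL39 (chrX:75959-75988, plus strand): aaatcccagttagaTGctgaactgatcaat
Over the 86 tested ribosomal protein introns, the most used base lay in the first 50 bp in 62 and was the third base in 24.

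**Figure D4:**
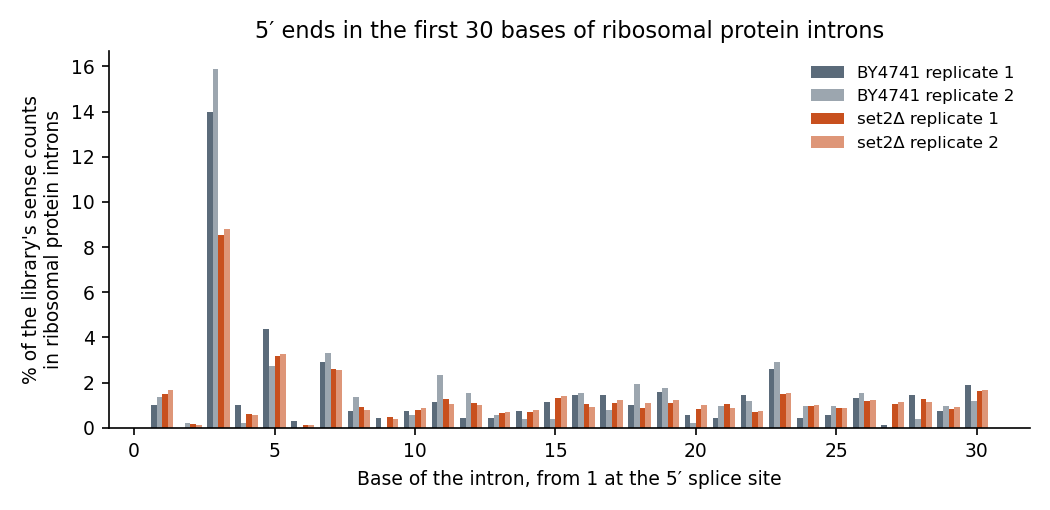
Share of each library's sense counts in ribosomal protein introns at each of the first 30 bases, counted from 1 at the 5′ splice site (grey BY4741, orange set2Δ, lighter shade replicate 2). Base 3 stands out with 14% and 15.9% in BY4741 against 8.53% and 8.81% in set2Δ.

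In ribosomal protein introns, but not in the others, the splice site bases took a smaller share in set2Δ than in BY4741. The first 6 bp held 20.6% and 20.4% of the ribosomal protein intron counts in BY4741 against 14.1% and 14.6% in set2Δ. In other introns they held 10.2% and 11.2% in BY4741 against 13.2% and 12.4% in set2Δ. Heavily used positions rose less than others between the strains, as given below, and what this contributes to these shares was not tested. With these 6 bp left out of every intron, 50 of 85 ribosomal protein introns were called higher and 2 lower, beside 24.9% and 17.9% of all regions. At the other end, the last base of these introns held 15 and 12 counts in BY4741 against 29 and 26 in set2Δ, and 15, 12, 27 and 26 of them lay in introns whose last base is the same letter as the last base of the preceding exon. A spliced read that begins at the last base of such an exon reads the same as one that begins at the last base of the intron, so that the sources of these counts cannot be told apart.

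Because most ribosomal protein introns lie within 100 bp of the gene start, they were set beside exons at the same distance. In the first 100 bp after the gene start the intron density was 188 and 172 in BY4741 against 548 and 561 in set2Δ, 3.08 times as high, while exon bases of ribosomal protein genes without an intron were at 642 and 533 against 621 and 591, a ratio of 1.03. In the third window of 100 bp the ratio was 4.87 in ribosomal protein introns, 0.674 in exons of ribosomal protein genes without an intron and 1.04 in exons of all genes. In the fifth window the ratio was 1.51 in ribosomal protein introns, whose density was 11.8 and 11.7 in BY4741 against 18.6 and 16.8 in set2Δ, and 0.54 in exons of ribosomal protein genes without an intron. In the sixth, the introns held only 2 and 1 counts in BY4741 against 33 and 19 in set2Δ. The exon part of ribosomal protein genes that have an intron, which in the first 100 bp is mostly the short first exon, had a ratio of 1.35. The ratios are descriptions of summed counts without a test.

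**Figure D5:**
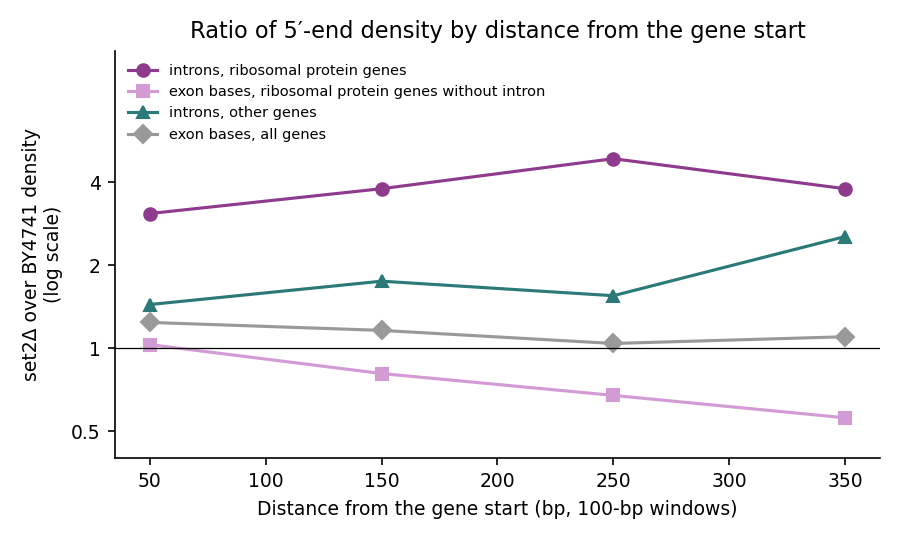
Ratio of the mean sense density in set2Δ to that in BY4741 (log scale, n = 2 libraries per strain) in 100-bp windows by distance from the gene start, for introns and exon bases of ribosomal protein genes and for introns of other genes and exon bases of all genes. Over the first 400 bp, which are those drawn, ribosomal protein introns lie at 3.08 to 4.87 and exon bases of ribosomal protein genes without an intron at 1.03 to 0.559.

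Introns whose 5′ splice site lies 100 bp or more from the gene start gave the same direction from fewer counts. There are 11 among the ribosomal protein introns, with densities of 2.51 and 6.05 in BY4741 against 26.7 and 28.5 in set2Δ. In all 9 tested the fold change was positive and 6 were called higher, beside 25.0% of all regions. Their median log2 fold change, 5.03, was that of RPL14A, which held no BY4741 count. RPL17A, RPL17B, RPS7A and RPS7B, also among them, held none either. Such introns passed the filter of 10 counts only through set2Δ and could not come out negative, so their shared sign adds nothing. With the first 200 bp after the gene start left out of all regions, 17 of 46 ribosomal protein introns were called higher and 1 lower, beside 24.9% and 17.8% of all regions.

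The 5′ ends at the promoters of these genes mostly took a smaller share of the counts in set2Δ. In the 5′ window of the gene, from 250 bp upstream of the start to 200 bp inside it and without intron bases, 6 of 88 ribosomal protein genes with an intron were higher and 77 lower in set2Δ, beside 32.5% and 30.4% of the 5067 windows tested. Their median log2 fold change was -0.79, against 0.11 over all windows. The windows of these genes held 5.16% and 5.48% of all counts in BY4741 against 3.17% and 3.4% in set2Δ, and those of ribosomal protein genes without an intron held 3.25% and 3.33% against 1.78% and 1.84%. The windows of all counted genes fell as well, from 77.0% and 78.3% in BY4741 to 67.3% and 69.3% in set2Δ. Counts in ribosomal protein introns amounted to 2.94% and 2.50% of those in the 5′ windows of the same genes in BY4741 and to 14.6% and 13.7% in set2Δ. Heavily used positions rose less than others between the strains, as given below. The 5′ windows were not refitted without such positions, so what level contributes to these values was not tested.

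Ratios of the strains fall with the level of a position, and this bears on the comparison of introns with more heavily used regions. Positions with 1 count in BY4741 replicate 1 held 5.32 times as many counts in set2Δ replicate 1 as in BY4741 replicate 2, and positions with 16 or more held 1.2 times as many. The totals of the compared libraries were 1267578 counts in set2Δ replicate 1 and 375442 in BY4741 replicate 2. The first ratio thus lies above the difference in depth and the last well below it. Leaving out positions of 8 or more counts left 58 of 85 ribosomal protein introns higher than their downstream exon, beside 6.80% of all pairs, whose median was then -0.09. Distinct positions left 42 of 84, beside 24.1% of all pairs. With cyclic loess offsets, which follow the level, 38 of 86 ribosomal protein introns were called higher in the test of introns alone and 3 lower, beside 22.3% and 19.6% of all regions.

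Among introns of other genes the calls were few and went both ways. Of the 55 tested, 6 were higher and 6 lower in set2Δ, beside 25.0% and 17.6% of all regions, with a median log2 fold change of 0.43. This median was -0.48 over the 19 introns kept by the stricter filterByExpr and -0.07 with distinct positions. Another 74 held 1 to 9 counts. By length, the 24 introns of 300 bp or more had a ratio of summed densities of 1.83, the 63 of at least 100 but under 300 bp of 0.821 and the 103 shorter ones of 1.70. These ratios are scaled by library totals and would be lower on the TMM sizes used for the calls.

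GLC7, the catalytic subunit of protein phosphatase 1, has an intron of 525 bp (chrV:432672-433196, plus strand) with 6 and 10 counts in BY4741 against 124 and 99 in set2Δ. The scaled values were 120 and 272 CPM in BY4741 against 543 and 566 in set2Δ, without overlap (log2 fold change 1.58 ± 0.35, edgeR adjusted p = 5.42e-05). Its most used base was far from the splice site, at base 409, with 1 and 2 against 10 and 12 counts. The first 300 bp of the downstream exon of GLC7 held 0 and 0 counts in BY4741 against 20 and 6 in set2Δ. The intron was thus not higher relative to this exon (relative change -4.42 ± 2.60, edgeR adjusted p = 0.281), in a fit without BY4741 exon counts. MPT5, an RNA-binding protein of the Puf family, has an intron of 640 bp that held 3 and 4 against 59 and 55 counts (1.8 ± 0.49, edgeR adjusted p = 0.00118). Both calls were lost when distinct positions were counted. The other 4 were the introns of BOS1, a SNARE of vesicle transport, the first of TAD3, a subunit of a tRNA deaminase, YJR079W and YNL050C, with at most 4 counts over both BY4741 libraries. YJR079W overlaps AIM24 on the opposite strand.

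HAC1, the transcription factor of the unfolded protein response, had the clearest decrease. Its intron of 252 bp (chrVI:75840-76091, plus strand) held 56 and 70 counts in BY4741 against 58 and 36 in set2Δ. The scaled values were 1118 and 1905 CPM in BY4741 against 254 and 206 in set2Δ, so that the strains were far apart (log2 fold change -2.65 ± 0.24, edgeR adjusted p = 2.10e-26). The call held under all 20 alternatives. Its 5′ window was lower too after scaling, with 274 and 274 counts in BY4741 against 281 and 259 in the deeper set2Δ libraries (-1.72, edgeR adjusted p = 1.95e-41).

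Another 5 introns outside the ribosomal protein genes were lower in set2Δ. APE2, an aminopeptidase, held 36 and 30 counts in its intron in BY4741 against 85 and 75 in set2Δ (-0.93 ± 0.25, edgeR adjusted p = 0.00124). TAF14, a subunit of several transcription complexes, held 28 and 23 against 70 and 60 (-0.86 ± 0.28, edgeR adjusted p = 0.00727), and its most used base was again the third of the intron, with 4 and 6 against 14 and 10 counts. ATG44, a factor of mitochondrial fission, LDO45, a lipid droplet protein, and NCE101, involved in non-classical secretion, had log2 fold changes of -1.19, -0.95 and -0.85. None of these 5 was called with library totals. APE2, TAF14 and ATG44 were not called without positions of 8 or more counts, nor was ATG44 without BY4741 replicate 2. LDO45 was called under 15 of 20 alternatives, not with DESeq2 nor without BY4741 replicate 2 or set2Δ replicate 2, and NCE101 under 11 of 19, among those that ended its call being DESeq2 and leaving out BY4741 replicate 2 or set2Δ replicate 1. In LDO45 40 bases of the intron lie in the 5′ window of another gene on the same strand, and it was not called without them.

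Groups of genes known for their introns were looked at as well. The 8 introns that hold a snoRNA gene had 8 and 5 counts in BY4741 against 102 and 84 in set2Δ in all. Of 4 tested, 1 was higher, beside 25.0% of all regions, so that this count does not set the group apart. It was the second intron of RPL7B with SNR59, with 3 and 1 against 39 and 39 counts (2.05 ± 0.61, edgeR adjusted p = 0.00358). This call was lost when the snoRNA bases were left out and with DESeq2. The snoRNA introns of RPS22B (1 and 3 against 23 and 19) and ASC1 (0 and 0 against 2 and 3), a ribosome-associated scaffold protein, were not called or had too few counts.

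The 14 introns in genes of meiosis held 0 and 1 counts in BY4741 against 2 and 0 in set2Δ and none could be tested. In genes of the cytoskeleton, 5 of 11 introns were tested and none was called by edgeR, with a median of 0.62. Over all regions 25.0% were called higher and 17.6% lower, and so few introns cannot be told apart from these shares. ACT1 (actin) held 1 and 0 sense counts against 0 and 2, TUB1 (α-tubulin) 3 and 2 against 3 and 2, TUB3 0 and 0 against 4 and 0, and COF1 (cofilin) 1 and 2 against 13 and 6.

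In genes of mRNA processing and export, 4 of 8 introns were tested and none was called by edgeR, with a median of 0.50. These too are too few to be told apart from the 25.0% higher and 17.6% lower of all regions. YRA1, an mRNA export adaptor that regulates its own splicing, held 2 and 0 counts in its 766 bp intron in BY4741 against 16 and 18 in set2Δ (ratio 3.66, 95% counting interval 0.939 to 31.5, edgeR adjusted p = 0.105). DBP2, an RNA helicase with the longest yeast intron annotated here (1002 bp), held 7 and 3 against 22 and 16 (-0.29 ± 0.56, edgeR adjusted p = 0.738). GCR1, the activator of glycolytic genes, held 6 and 8 against 64 and 38 (0.64 ± 0.41, edgeR adjusted p = 0.231), and its scaled values in set2Δ (280.5 and 217 CPM) overlapped those of BY4741 (120 and 218).

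Antisense 5′ ends in introns were rare. Ribosomal protein introns held 15 and 7 antisense counts in BY4741 against 78 and 84 in set2Δ, and 36 of the 90 held none. Their density, on the scale used above, was 0.911 and 0.513 against 1.69 and 2.10, and that of other introns 4.15 and 2.81 against 8.46 and 8.22. The strains did not overlap in either group, and the ratios were 2.66 and 2.40. Over all 1483 antisense regions tested, scaled by library totals, the median log2 fold change was 2.09 and edgeR called 54.8% higher. That median is taken over single regions and these ratios come from summed counts, so the measures are not alike. In the downstream exons antisense density was 0.598 and 1.44 against 0.569 and 0.451 in ribosomal protein genes and 3.89 and 3.55 against 5.61 and 5.18 in the others.

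The antisense ratio of intron to exon was higher in set2Δ for both groups. In ribosomal protein genes it was 1.52 and 0.356 in BY4741 against 2.97 and 4.66 in set2Δ, resting on 6 to 16 exon counts per library. In other genes it was 1.07 and 0.793 against 1.51 and 1.59. The exact two-sided permutation test gave p = 0.33 in both, the smallest it allows.

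Only 7 introns held enough antisense counts for a test, and 0 were called by edgeR or by DESeq2, beside 16.9% higher and 4.38% lower of the 1483 antisense regions tested. At an unadjusted p under 0.05 edgeR gave 1. PCH2, a meiotic checkpoint ATPase whose intron lies 1551 bp into the gene, held 16 and 9 antisense counts in BY4741 against 100 and 82 in set2Δ (log2 fold change 0.44 ± 0.35, edgeR adjusted p = 0.354, against a median of 1.21 over all antisense regions). The same intron held 1 sense count in all. MPT5 held 11 and 5 antisense counts against 48 and 41 (0.05 ± 0.44) and ACT1 5 and 3 against 29 and 33 (0.52 ± 0.57). YJR079W (6 and 0 against 24 and 11) and RPL22A (4 and 0 against 16 and 15) followed. Under the alternatives, 4 introns were called with library totals and 1 without a filter, beside 54.8% and 6.65% of all antisense regions called higher.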

How the data were processed

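Members and gene lists were chosen with earlier results of these data known. The authors deposited whole-number counts of 5′ ends at each base and strand, without normalization and per replicate. According to the paper's methods, reads were aligned to build R64-1-1 with Novoalign and reads with several alignments or soft-clipped 5′ ends were dropped. Whether reads with the same 8 nt barcode were collapsed is not given in the sources used here, so counting intervals cover counting error only. The submitters' processing notes also name CASAVA 1.8.2.

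Positions listed for the minus strand were shifted 42 bp rightwards. Counts were summed per intron (RefSeq annotation, R64), leaving out bases shared by 2 genes of a strand and, for antisense, 5′ windows of other genes. Densities are per kb of bases at which a unique 43-mer starts. Regions with 10 or more counts were tested in edgeR 4.0.16 (quasi-likelihood, TMM, Benjamini-Hochberg adjusted p below 0.1; R 4.3.3), with DESeq2 1.42.0 and limma 3.58.1 (cyclic loess) as alternatives. Fits were tested on simulated data. Ratios were compared by exact permutation tests in scipy 1.17.1. Python 3.11.15, numpy 2.4.6, pandas 2.3.3 and matplotlib 3.10.9 were used.

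Introns named are a list of well-known ones, the 10 with most sense and 5 with most antisense counts, and those called with the largest changes (10 in each direction for sense with a mean of 5 counts in the higher strain, 5 in each direction against the exon and for antisense). MATA1 of the list was not matched. MOB1 and BOS1 were named after their values were seen.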

Additional observations from a re-analysis of the deposited data

How the results depend on the processing

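Of 340 values that sum up a comparison, recomputed under the alternatives, 289 kept their direction or stayed within 1.5 times. The number of ribosomal protein introns higher in set2Δ (49) was 19 with DESeq2, 75 with library totals, 14 with distinct positions and 17 with the first 200 bp after the gene start left out, and 26 to 36 with each library left out in turn. None was called lower, except 1 with DESeq2's size factors in edgeR, 3 with filterByExpr, 3 with cyclic loess offsets, 5 with minus-strand positions as listed, 1 without the 200 bp, 1 without 10 bp at intron ends, 2 without the first 6 bp and 0 to 2 with a library left out. Among other introns, those higher (6) were 2 with DESeq2, 17 with library totals, 11 with minus-strand positions as listed, 2 with distinct positions and 3 to 6 with a library left out, and those lower (6) were 1 with library totals and 3 without the 200 bp. Ribosomal protein introns higher than their downstream exon (58) were 27 with DESeq2, 19 without the 200 bp, 9 against the upstream exon and 0 to 45 with a library left out. For other introns this count (2) was 0 with DESeq2, 0 against the upstream exon, 4 with minus-strand positions as listed and 0 with any library left out. It was 1 with no filter, at an adjusted p of 0.05, with distinct positions, without the 200 bp, without 10 bp at intron ends and against the whole downstream exon. Lower ones (0) were 1 with library totals, 1 with minus-strand positions as listed, 1 with distinct positions and 2 against the whole exon. Antisense calls (0) were 4 with library totals and 1 with no filter. Of the 5′ windows, 2 of ribosomal protein genes and 12 of others were higher with DESeq2, and 1 to 4 of ribosomal protein genes with a library left out. The intron to exon ratio of other introns turned to -0.0234 with distinct positions and to -0.0716 against the whole downstream exon. The causes were not tested.

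Single introns without a call changed sign. In the sense test RPL40A was at -0.485 without the 200 bp and -0.394 with distinct positions, RPS17B at -0.418 and RPL30 at -0.00326 with distinct positions, and DBP2 at 0.407 with library totals. With a library left out COF1 ranged from -0.225 to 1.12, DBP2 from -0.646 to 0.188 and RPL30 from -0.201 to 1.71. In the antisense test MPT5 was at -0.515 without the 200 bp, -0.401 with distinct positions, -0.0372 with filterByExpr and -0.063 with 5′ windows of other genes kept, and PCH2 at -0.721 and YJR079W at -0.0981 with distinct positions. With a library left out the antisense values ranged from -0.0325 to 0.785 in ACT1, -0.427 to 0.573 in MPT5, -0.483 to 6.50 in RPL22A and -0.896 to 6.67 in YJR079W. Cyclic loess, same-strand 5′ windows of other genes left out and the first 6 bp left out were chosen after seeing the data.

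Same-numbered libraries did not deviate together (r = -0.03 over 3183 features), and with the replicate number as a block 45 ribosomal protein introns were higher and 0 lower, beside 5 and 6 other introns. At the depth of BY4741, introns with fewer than 10 counts, which are 74 of the 190 others besides 61 without any, could not be compared. Counts at heavily used positions did not follow depth, and 2 libraries per strain cannot give an exact p below 0.33.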
